A study of Mus musculus with 12 samples.

Results

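Transcripts of the metabotropic glutamate receptors were measured in pyramidal cells and interneurons of the developing mouse cortex. The receptors described are Grm2, Grm3, Grm4, Grm5, Grm7 and Grm8, which are 6 of 19937 genes with a probe set under that symbol alone. They were chosen by gene family, and each was read by its only probe set. The study sorted GFP+ cells by FACS from C57BL6 mice at 2 ages per population and hybridized their RNA to Mouse Gene 1.0 ST arrays, to ask which genes differ between the neuronal populations while axons and synapses form.

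Pyramidal cells came from somatosensory cortices of NexCre;RCE:LoxP mice at P0 and P12 (Pyr P0 and Pyr P12). Interneurons came from cortices of Nkx2-1Cre;RCE:LoxP mice at P0 and P10 (IN P0 and IN P10). The RCE:LoxP allele, shared by all groups, turns on GFP in cells with a history of Cre. Nex drives Cre in postmitotic pyramidal cells, and Nkx2-1 drives it in the medial ganglionic eminence, whose progeny include interneurons of several types and some oligodendrocyte lineage cells. Each group had 3 biological replicates, named A to C. The labels do not say whether cells of several animals were pooled. The dissected area differed between the populations as worded in the labels, so it cannot be told apart from population at either age. The later ages also differed by 2 days, which cannot be told apart from population in IN P10 against Pyr P12.

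Metabotropic glutamate receptors are G-protein-coupled receptors that respond to glutamate more slowly than the ion channel receptors and adjust excitability and transmitter release. Group I receptors, here Grm5, couple to Gq, which activates phospholipase C, and sit mostly beside the postsynaptic density. Group II receptors (Grm2 and Grm3) and group III receptors (Grm4, Grm6, Grm7 and Grm8) couple to Gi/o, which lowers cyclic AMP. Many of them are presynaptic and reduce release, whereas Grm3 is also abundant in glia. In the cortex, mGluR5 takes part in synaptic plasticity during postnatal development.

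The group II pair differed between the populations in opposite directions, so their promoters are shown for reference. The arrays did not measure promoter activity. Each sequence is the 250 bases before the start of the RefSeq transcript in GRCm38.p6, on the minus strand, at chr9:106656110-106656359 for Grm2 and chr5:9725353-9725602 for Grm3. Capitals mark the GC box GGGCGG, searched on both strands.
Grm2: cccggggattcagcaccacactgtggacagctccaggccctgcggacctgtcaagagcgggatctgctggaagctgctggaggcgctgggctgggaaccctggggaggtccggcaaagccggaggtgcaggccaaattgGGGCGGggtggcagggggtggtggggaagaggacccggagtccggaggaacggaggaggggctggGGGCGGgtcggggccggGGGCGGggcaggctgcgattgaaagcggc
Grm3: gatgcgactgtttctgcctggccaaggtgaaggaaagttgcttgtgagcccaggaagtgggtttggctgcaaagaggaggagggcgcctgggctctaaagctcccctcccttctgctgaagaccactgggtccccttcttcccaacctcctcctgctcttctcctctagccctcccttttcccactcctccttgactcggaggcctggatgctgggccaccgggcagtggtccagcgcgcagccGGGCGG
The Grm2 promoter held 3 GC boxes and the Grm3 promoter 1, and 32.7% of 32851 promoters of this length held at least 1. Neither held the E-box CANNTG, present in 66.2% of promoters, or the TATA box TATAAA, present in 12.4%. GC content was 71.2% for Grm2 and 62.4% for Grm3, against a median of 52.4% over all promoters. The number of CpG dinucleotides was 16 and 8, against a median of 6.

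Values below are log2 signals after RMA, and differences are between group means on that log2 scale. Different probe sets bind with different strength, so levels were compared between groups for 1 receptor and never between receptors. A gene was called when limma's adjusted p was under 0.05 and the fold change over 2. As a background level, each array's 95th percentile over 1208 probe sets of odorant and pheromone receptors (Olfr, Vmn1r and Vmn2r) was used, which lay between 7.13 and 7.45. Arrays of 1 group correlated at 0.995 to 0.999 across probe sets and arrays of different groups at 0.936 to 0.981. As cells were sorted in bulk, fewer cells with a transcript and less of it per cell cannot be told apart.

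Grm5, a group I receptor, was higher in interneurons than in pyramidal cells at both ages and higher at the later age in both populations, each time by less than 2-fold. It was at 11.94, 11.93 and 12.07 in Pyr P0 and at 12.37, 12.48 and 12.36 in Pyr P12. In interneurons it was at 12.58, 12.44 and 12.44 at P0 and at 12.91, 12.91 and 12.99 at P10. The 3 IN P10 arrays stood above all others, the 3 Pyr P0 arrays below all others, and the arrays of Pyr P12 and IN P0 overlapped. The population difference was 0.50 at P0 (SE 0.06, adjusted p = 2.51e-05) and 0.53 between IN P10 and Pyr P12 (SE 0.06, adjusted p = 8.72e-06). The age difference was 0.45 in interneurons (SE 0.06, adjusted p = 2.86e-05) and 0.42 in pyramidal cells (SE 0.06, adjusted p = 4.52e-05). These age differences were 0.03 apart, with a 95% confidence interval from -0.16 to 0.21 (adjusted p = 0.847).

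**Figure D1:**
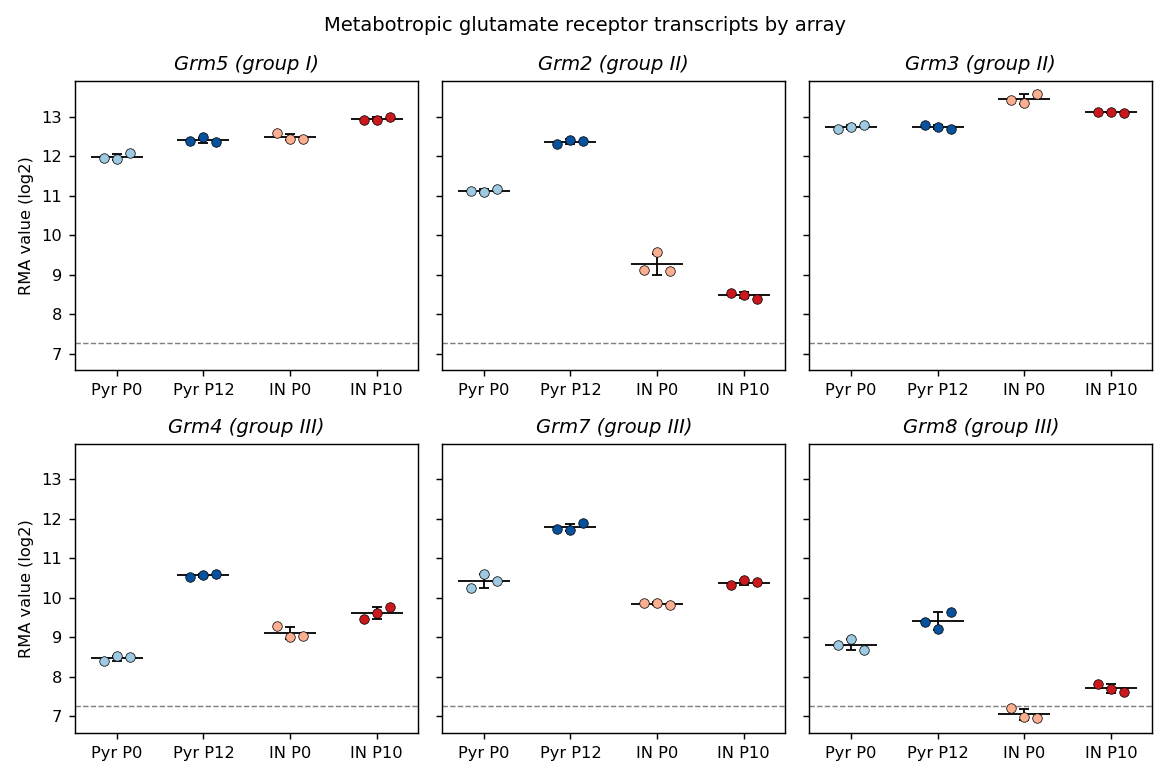
RMA value (log2) of each receptor on each array, with the group on the x axis; points are arrays in the order A to C, the long bar is the group mean, the short bars are 1 SD (n = 3), and the dashed line is the mean background level. Grm2 lies at 12.30 to 12.42 in Pyr P12 and at 8.40 to 8.54 in IN P10, whereas Grm3 lies between 12.69 and 13.57 on every array.

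Grm2, a group II receptor that acts mainly as a presynaptic autoreceptor, showed the largest population difference of the 6 receptors. Its values were 11.12, 11.08 and 11.18 in Pyr P0 and 12.30, 12.42 and 12.39 in Pyr P12. Interneurons had 9.11, 9.57 and 9.09 at P0 and 8.54, 8.50 and 8.40 at P10. All 6 pyramidal arrays were above all 6 interneuron arrays, no ranges of the 4 groups overlapped, and replicate B of IN P0 was the highest of the interneuron arrays. At P0, Grm2 was 3.65-fold lower in interneurons (difference -1.87, SE 0.10, adjusted p = 9.56e-09). In IN P10 it was 14.8-fold lower than in Pyr P12 (difference -3.89, SE 0.10, adjusted p = 5.12e-12), and 0.126% of all probe sets tested differed there by at least as much in either direction.

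With age Grm2 went opposite ways in the populations. It rose 2.36-fold in pyramidal cells (difference 1.24, SE 0.10, adjusted p = 1.96e-07). In interneurons it was lower at P10 by less than 2-fold (difference -0.78, SE 0.10, adjusted p = 2.02e-05). The test of the difference between these age differences gave -2.03 (SE 0.14, adjusted p = 2.43e-07). The order from high to low was Pyr P12, Pyr P0, IN P0 and IN P10, and each step passed an adjusted p of 0.05.

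Most markers of pyramidal cells were lower in the interneuron arrays too. Of 13 measured, 8 were called lower in interneurons at P0 and 9 at the later ages, beside 1.74% and 2.91% of all probe sets called lower. Bcl11b was on the other side at both ages, with differences of 0.61 and 0.94, as was Cux2 at P0, with 0.71. With age in pyramidal cells, 3 of these markers were called higher and 2 lower, beside 5.68% and 3.48% of all probe sets. Their median difference there was 0.03. In interneurons 2 were called higher and 4 lower with age, beside 4.19% and 2.85% of all probe sets. The 2 higher ones were Camk2a and Nrgn, by 2.12 and 2.29. The list's median in interneurons was -0.76, and the Grm2 difference was -0.78.

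After the background level was subtracted on the linear scale, the mean Grm2 signal of interneurons was 22.5% of that of pyramidal cells at P0 and 4.02% at the later ages. Over the 13 markers the median was 16.4% at P0 (range 0% to 167%) and 11.7% at the later ages (range 0% to 217%). For Slc17a7, the vesicular glutamate transporter of cortical pyramidal cells, the shares were 10.9% and 1.27%. What part pyramidal RNA had in the Grm2 signal of the interneuron arrays was not tested.

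Grm3, the other group II receptor, was higher in interneurons than in pyramidal cells, by less than 2-fold. Its values were 12.70, 12.73 and 12.79 in Pyr P0 and 12.80, 12.73 and 12.69 in Pyr P12. In interneurons they were 13.43, 13.34 and 13.57 at P0 and 13.12, 13.11 and 13.10 at P10. The pyramidal groups overlapped, and all interneuron arrays were above all pyramidal arrays. The population difference was 0.71 at P0 (SE 0.06, adjusted p = 8.27e-07) and 0.37 at the later ages (SE 0.06, adjusted p = 0.000207). With age, Grm3 in interneurons was lower by 0.34 (difference -0.34, SE 0.06, adjusted p = 0.000337), and the difference in pyramidal cells had a 95% confidence interval from -0.13 to 0.13 (adjusted p = 0.990). The age differences of the populations differed by -0.34 (SE 0.09, adjusted p = 0.00842).

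The difference between Grm3 and Grm2 was larger in interneurons, mostly through lower Grm2, which differed by -1.87 at P0 and -3.89 later. Grm3 differed by 0.71 and 0.37. The difference Grm3 minus Grm2, taken on each array, was larger than in pyramidal cells by 2.58 at P0 and by 4.26 at the later ages. This quantity was chosen after the values were seen and was not tested.

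Markers of oligodendrocyte precursors, cells that are known to express Grm3 and Grm5, stood higher in interneurons too. Of 11 such markers, 9 were called higher in the interneurons at P0 and 10 at the later ages, beside 1.90% and 2.65% of all probe sets. Their summed signal, on the log2 scale, was 11.35 to 11.61 in Pyr P0 and 11.58 to 11.67 in Pyr P12. In the interneurons it was 13.63 to 13.94 at P0 and 13.48 to 14.09 at P10. Pdgfra, the receptor that defines these precursors, had means of 11.91 and 10.57 in the interneurons at P0 and P10, against 7.76 and 7.71 in the pyramidal groups. Bcas1 was not above background in either pyramidal group. Within IN P10 the summed signal was highest in replicate A, at 14.09. Grm3 was 13.12 on that array, the highest of the group, against 13.11 and 13.10 in replicates B and C. Grm5 was 12.91 there, against 12.91 and 12.99. Within IN P0 the summed signal was highest in replicate B, at 13.94, where Grm3 was 13.34, the lowest of that group, and Grm5 was 12.44. The part of precursor RNA in the Grm3 and Grm5 differences was not tested.

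Group III receptors are presynaptic in most neurons, and Grm7 in particular lies in the active zone of boutons. The annotation named all 4 of them, and Grm4, Grm7 and Grm8 exceeded the background level on all arrays apart from Grm8 in IN P0. Their population differences pointed in different ways at P0, whereas at the later ages all 3 were lower in the interneurons.

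Grm4 rose with age in pyramidal cells more than any other of the 6 receptors. It was at 8.40, 8.52 and 8.50 in Pyr P0 and at 10.53, 10.58 and 10.59 in Pyr P12. Interneurons had 9.28, 9.01 and 9.02 at P0 and 9.47, 9.61 and 9.78 at P10. No ranges of the groups overlapped, and both interneuron groups lay between the pyramidal ones. The change in pyramidal cells was 4.27-fold (difference 2.09, SE 0.08, adjusted p = 1.60e-10), and 1.56% of all probe sets differed between Pyr P12 and Pyr P0 by at least as much. The age difference in interneurons was 0.51 (SE 0.08, adjusted p = 0.000160), and the age differences of the populations were -1.58 apart (SE 0.12, adjusted p = 3.95e-07). Between populations, Grm4 was higher in interneurons at P0 (difference 0.63, SE 0.08, adjusted p = 6.55e-05) and lower at the later ages (difference -0.95, SE 0.08, adjusted p = 7.55e-07), neither by 2-fold. Without replicate C of IN P10 the later difference was -1.02, past the 2-fold threshold.

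Grm7 also rose with age in pyramidal cells and was lower in interneurons at both ages. Its values were 10.25, 10.60 and 10.43 in Pyr P0 and 11.73, 11.73 and 11.89 in Pyr P12. In IN P0 they were 9.86, 9.88 and 9.81, and in IN P10 10.32, 10.44 and 10.39. Pyr P12 stood above and IN P0 below the other groups, and IN P10 overlapped with Pyr P0. The change in pyramidal cells was 2.57-fold (difference 1.36, SE 0.08, adjusted p = 6.03e-09). In IN P10, Grm7 was 2.64-fold lower than in Pyr P12 (difference -1.40, SE 0.08, adjusted p = 7.59e-09). Below 2-fold were the population difference at P0 (-0.57, SE 0.08, adjusted p = 9.11e-05) and the age difference in interneurons (0.53, SE 0.08, adjusted p = 6.60e-05). The age differences of the populations were -0.83 apart (SE 0.11, adjusted p = 7.97e-05).

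Grm8 was lower in interneurons at both ages by more than 2-fold. It was at 8.81, 8.95 and 8.68 in Pyr P0 and at 9.38, 9.22 and 9.65 in Pyr P12. Interneurons had 7.21, 6.98 and 6.96 at P0 and 7.82, 7.69 and 7.61 at P10. All pyramidal arrays were above all interneuron arrays, and in IN P0 1 of 3 arrays, replicate A, exceeded the background level. With each IN P0 array set to at least its background level, Grm8 was at least 2.99-fold lower in interneurons at P0 (fitted difference -1.77, SE 0.11, adjusted p = 2.73e-08). It was 3.27-fold lower at the later ages (difference -1.71, SE 0.11, adjusted p = 2.22e-08). The IN P10 arrays were also close to their background levels, which were 7.20 to 7.27. After subtraction of background on the linear scale, the Grm8 signal of IN P10 was 11.3% of that of Pyr P12. The age difference was 0.66 in interneurons (SE 0.11, adjusted p = 0.000160) and 0.60 in pyramidal cells (SE 0.11, adjusted p = 0.000326). The fitted age differences were 0.06 apart, with a 95% confidence interval from -0.27 to 0.39 (adjusted p = 0.811). As IN P0 lay at the background level, the interneuron age difference was at least 0.47 and its full size was not measured, so these age differences cannot be ranked.

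Grm6, the receptor of retinal ON bipolar cells and the remaining member of group III, lay between 7.24 and 7.53 on the 12 arrays. It was above background on 3 of 3 arrays in Pyr P0, IN P0 and IN P10 and on 1 of 3 in Pyr P12. None of its differences in the 5 comparisons passed an adjusted p of 0.05. It was not counted among the 6 receptors.

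**Figure D2:**
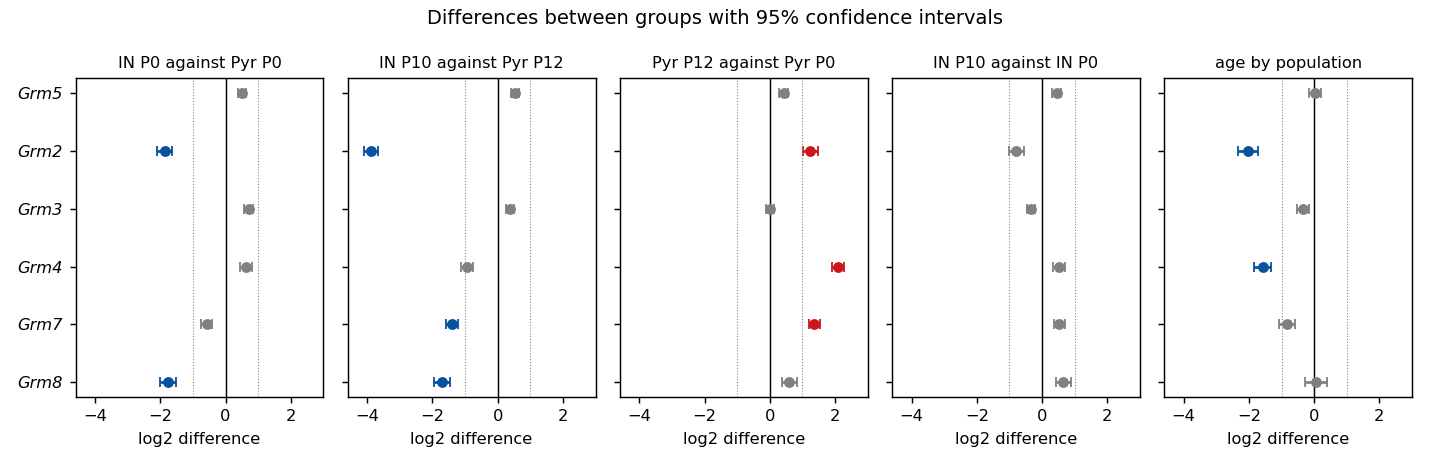
Difference between group means (log2) for each receptor in each comparison, with 95% confidence intervals from limma; red and blue points were called higher and lower, grey points were not called, and dotted lines mark 2-fold. Grm2 is at -3.89 in IN P10 against Pyr P12, and Grm4 at 2.09 in Pyr P12 against Pyr P0.

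The 6 receptors were then counted against all probe sets in each comparison. At P0, 2 of 6 were called, both lower in interneurons than in pyramidal cells (Grm2 and Grm8). Over all probe sets, 1.74% were called lower and 1.90% higher. The median difference was -0.03 for the receptors and -0.00 for all probe sets, as Grm3, Grm4 and Grm5 were on the other side. In IN P10 against Pyr P12, 3 of 6 were called, all of them lower (Grm2, Grm7 and Grm8), against 2.91% of all probe sets called lower and 2.65% called higher. The medians were -1.17 and -0.07.

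With age in pyramidal cells, 3 of 6 receptors were called, all of them higher (Grm2, Grm4 and Grm7), where 5.68% of all probe sets were called higher and 3.48% lower. The median difference was 0.92 for the receptors and 0.06 for all probe sets. In interneurons limma called 0 of 6 with age, and the methods' SAM test called 0. Of all probe sets, 4.19% rose and 2.85% fell with age there by the same rule. All 6 passed an unadjusted p of 0.05, as did 49.7% of all probe sets, and all 6 passed an adjusted p of 0.05 at any fold, as did 45.5%. The medians were 0.48 and 0.00. For the difference between the age differences, 2 of 6 were called, both lower (Grm2 and Grm4), beside 2.63% of all probe sets called lower and 2.24% called higher. SAM called the same number of receptors as limma in each of the 4 comparisons of 2 groups.

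**Figure D3:**
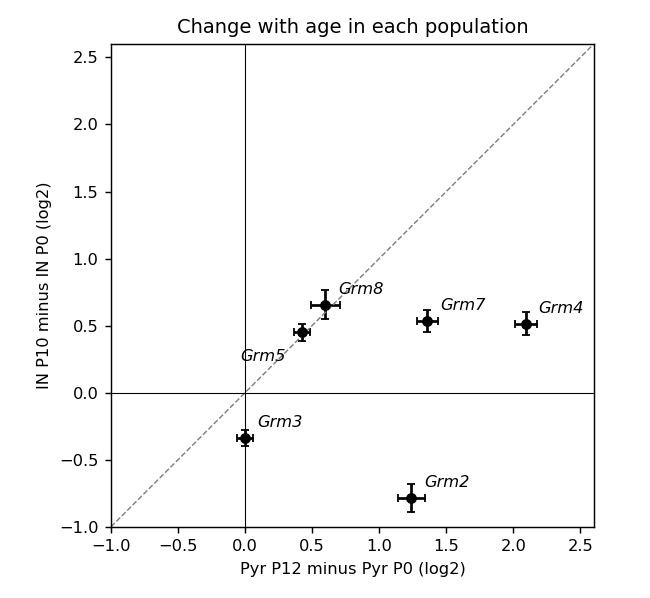
Difference with age in interneurons (y axis, log2) against that in pyramidal cells (x axis, log2) for each receptor; bars are standard errors and the dashed line marks equal differences. Grm5 lies near the line, as does Grm8, whose y value rests on IN P0 arrays at the background level; Grm4 and Grm7 lie to its right, and Grm2 at 1.24 on the x axis and -0.78 on the y axis.

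The order of the groups was different for most receptors. Pyr P12 ranked first for Grm2, Grm4, Grm7 and Grm8, IN P10 for Grm5 and IN P0 for Grm3. From high to low the order was IN P10, IN P0, Pyr P12 and Pyr P0 for Grm5, and IN P0, IN P10, Pyr P0 and Pyr P12 for Grm3. It was Pyr P12, IN P10, IN P0 and Pyr P0 for Grm4, and Pyr P12, Pyr P0, IN P10 and IN P0 for Grm7 and Grm8. Neighbours in the order did not differ beyond their spread in 3 places. These were IN P0 and Pyr P12 for Grm5 (difference 0.08, adjusted p = 0.270), Pyr P0 and IN P10 for Grm7 (difference 0.04 in favour of Pyr P0, adjusted p = 0.755) and the pyramidal groups for Grm3.

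Genes with a pattern most like each receptor were found by Pearson's r over the 12 arrays among 14630 genes. These r values describe 4 groups of arrays more than 12 separate points. Grm5 was closest to Me3, a mitochondrial malic enzyme (r = 0.992), Etl4 (0.988) and Ppargc1a, a transcriptional coactivator of mitochondrial genes (0.987). Ppargc1a had means of 8.81, 10.18, 10.71 and 12.68 in Pyr P0, Pyr P12, IN P0 and IN P10. Grm2 was closest to Plxnd1, a semaphorin receptor (0.996), Sorcs1, a sorting receptor (0.996), and Sv2b, a synaptic vesicle glycoprotein (0.994). Sv2b had means of 11.21, 12.65, 8.50 and 8.02 in the same order of groups, so it shared the extremes of Grm2.

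Grm3 was closest to Crybg3 (0.991), Kif23, a kinesin of cell division (0.980), and Sh3rf3 (0.976). Crybg3 was not above background in either pyramidal group, and Kif23 had means of 7.46, 7.40, 9.36 and 8.30. Cycling cell markers had a summed log2 signal of 10.30 to 10.33 in IN P0 and of 9.82 to 10.07 over the other groups. Of 7 measured, 0 were called in any comparison, where 1.74% to 5.68% of all probe sets were called in each direction. At an unadjusted limma p under 0.05 and any fold, all 7 were lower with age in interneurons. There 49.7% of all probe sets passed in either direction, and the list's median was -0.27. Birc5, Cenpf and Bub1 were not above background in any group. Grm4 was closest to Arhgef17 (0.993), the postsynaptic scaffold Dlgap3 (0.991) and Camk2n1, an inhibitor of CaMKII (0.990). For Grm7 the nearest were 2900026A02Rik (0.997), the presynaptic SNARE Stx1a (0.996) and Ptpn3 (0.994), and for Grm8 Minar2 (0.990), the cation channel Trpm3 (0.989) and Vwc2l (0.986). The number of genes with r over 0.95 ranged from 37 for Grm3 to 301 for Grm7.

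The proteins that carry the signal of these receptors were counted next, from lists chosen by function, against the same shares of all probe sets. Of 21 measured genes of the Gq cascade of group I receptors, 8 rose and 1 fell with age in pyramidal cells. Of all probe sets, 5.68% rose and 3.48% fell there. In interneurons 4 were called, all higher, beside 4.19% of all probe sets, and without replicate B of IN P0 this count was 2. The list's median difference was 0.16 in pyramidal cells and 0.37 in interneurons, beside 0.06 and 0.00 for all probe sets. Plcb4, a phospholipase C, rose by 1.89 in pyramidal cells (SE 0.06) from a mean of 9.02 to 10.91. In interneurons it had means of 10.43 and 10.67, and its age differences were -1.64 apart. Dagla, which makes the endocannabinoid 2-arachidonoylglycerol downstream of group I receptors, rose by 1.49 in pyramidal cells (SE 0.06) and had a difference of 0.75 in interneurons. Protein kinase Prkcd fell by 1.94 in pyramidal cells (SE 0.11), and Prkcb rose by 1.40 in pyramidal cells and by 1.76 in interneurons.

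Between populations, 2 genes of the Gq cascade were called higher and 1 lower in the later interneurons, beside 2.65% and 2.91% of all probe sets. At P0, 3 were called higher and 3 lower, beside 1.90% and 1.74%. Itpr2, a calcium channel of the endoplasmic reticulum, was higher by 2.05 in IN P10 (SE 0.15), where Pyr P12 had 1 of 3 arrays above background, and by 1.49 at P0. Trpc5, a cation channel opened downstream of Gq, was lower in interneurons at P0 (difference -1.98, SE 0.11). It rose by 1.56 with age in interneurons (SE 0.11).

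Of 17 measured scaffolds and partners of group I receptors, 3 were called in IN P10 against Pyr P12, all of them lower. Of all probe sets, 2.91% were called lower there. The list's median difference was -0.52, beside -0.07 for all probe sets. Homer1, which ties mGluR5 to the postsynaptic density, had a mean of 10.38 in IN P10 and 11.60 in Pyr P12 (difference -1.23, SE 0.06). Grasp, also called Tamalin and a trafficking partner of group I receptors, differed by -2.38 (SE 0.08), with means of 8.74 and 11.12. Shank2 differed by -1.07 (SE 0.08). Grm5 itself was on the other side, with the difference of 0.53 given above.

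With age in pyramidal cells 5 scaffolds rose and 1 fell, beside 5.68% and 3.48% of all probe sets. Grasp rose by 2.05, Frmpd4 by 1.65 and Dlgap3 by 1.40, and Homer3 fell by 1.25. In interneurons Frmpd4, which links Homer to other scaffolds, rose by 1.70 (SE 0.07), and it was the only 1 of the 17 called there. Of all probe sets, 4.19% were called higher with age in interneurons. Dlgap2 rose in pyramidal cells from a mean of 9.32 to 11.32. It was higher in interneurons at P0 by 2.67 (SE 0.09), with a mean of 11.99, and the later groups differed by -0.03, with a 95% confidence interval from -0.22 to 0.17 (adjusted p = 0.814).

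Of 30 measured genes of the Gi/o cascade, through which groups II and III act, 9 were called with age in pyramidal cells and 6 in interneurons. All of them were higher, beside 5.68% and 4.19% of all probe sets called higher. The list's median was 0.42 and 0.44, beside 0.06 and 0.00 for all probe sets. In pyramidal cells the largest changes of the list were those of potassium channel subunits opened by Gi/o. Kcnj9 rose by 2.74 there (SE 0.10) and by 1.17 in interneurons (SE 0.10). Kcnj6 rose by 2.33 in pyramidal cells (SE 0.09), with a difference of 0.38 in interneurons. Both were lower in the later interneurons, with differences of -1.85 for Kcnj9 and -1.70 for Kcnj6, and their age differences were -1.57 and -1.95 apart.

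Kcnj3, the common partner subunit of these channels, rose in both populations, by 1.34 in pyramidal cells and 1.68 in interneurons. It was lower in interneurons at P0 (difference -1.06, SE 0.07). The G protein subunit Gng4 rose by 1.97 and 1.99. Adcy8, a calcium-stimulated adenylyl cyclase, rose by 2.13 and 1.34 and was higher in IN P0 by 1.46 (SE 0.07). In IN P10 against Pyr P12, 1 gene of this cascade was called higher, Gng7 at 1.31, and 3 lower, with Adcy9 at -1.18 beside the channels. The shares of all probe sets there were 2.65% higher and 2.91% lower.

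**Figure D4:**
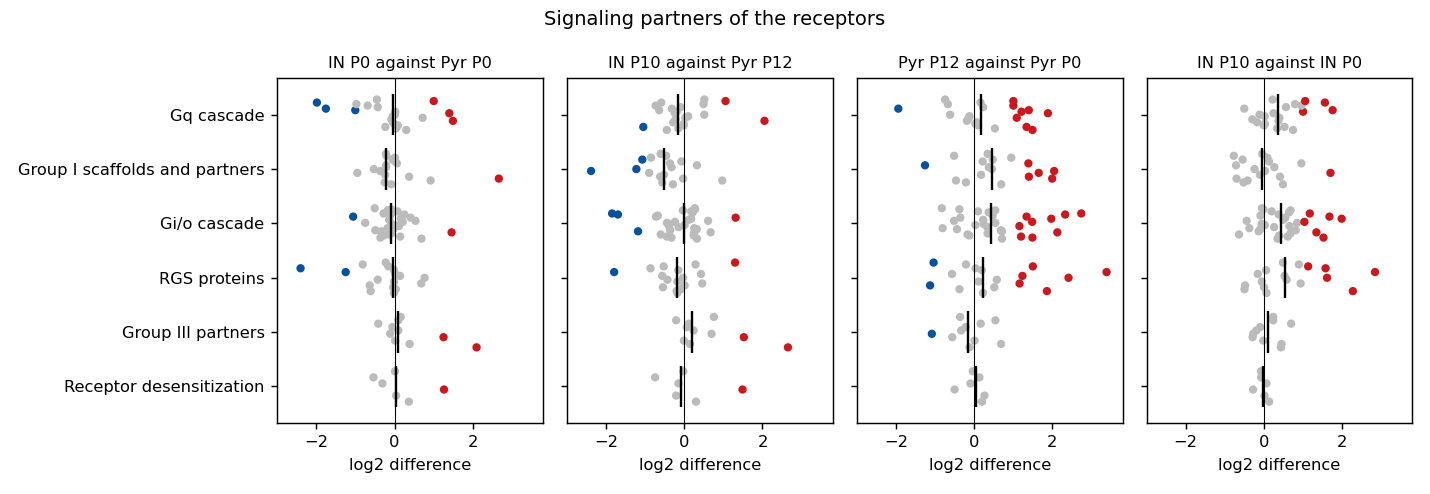
Difference between group means (log2) of each measured gene of 6 signaling lists in 4 comparisons; red and blue points were called higher and lower, grey points were not called, and black bars are list medians. In Pyr P12 against Pyr P0, 9 of 30 Gi/o genes lie on the right as called higher, beside 5.68% of all probe sets.

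RGS proteins speed the end of G protein signals. Of 17 measured, 6 rose and 2 fell with age in pyramidal cells, beside 5.68% and 3.48% of all probe sets. In interneurons 5 were called, all higher, beside 4.19% of all probe sets called higher. The list's median was 0.23 in pyramidal cells and 0.53 in interneurons, beside 0.06 and 0.00 for all probe sets. Rgs4 rose by 3.39 in pyramidal cells (SE 0.16) and 2.84 in interneurons (SE 0.16), and was lower in interneurons at both ages, with differences of -1.25 at P0 and -1.79 later. Rgs2 rose by 2.41 and 1.62, and Rgs11 by 1.86 and 2.28. Rgs6 was at 11.41 and 11.45 in the pyramidal groups. It rose by 1.58 in interneurons (SE 0.12), from a mean of 9.01 to 10.59.

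Of 10 partners of group III receptors, 2 were called higher in interneurons at both ages, Elfn1 and Grip1. Of all probe sets, 1.90% were called higher at P0 and 2.65% later. The list's median was 0.10 at P0 and 0.19 later, beside -0.00 and -0.07 for all probe sets. Elfn1 is a postsynaptic adhesion protein that recruits mGluR7 to the facing bouton. It had means of 8.75 and 8.64 in the younger and older pyramidal cells and of 10.85 and 11.29 in the interneurons. The population difference was 2.10 at P0 (SE 0.13, adjusted p = 4.26e-08) and 2.65 later (SE 0.13, adjusted p = 2.41e-09). The scaffold Grip1 was higher by 1.25 and 1.52. Elfn1 and Grm7 differed between the populations in opposite directions at both ages, with the Grm7 difference at P0 below 2-fold. Of 6 measured genes of receptor desensitization, Grk3, a receptor kinase, was called higher in interneurons, by 1.27 at P0 and 1.49 later. The shares of all probe sets called higher were those given for the group III partners.

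The arrays carried the markers of their labelled populations, with markers of other cells above background. All 7 pan-interneuron genes were called higher in interneurons at both ages, and Gad1 had means of 12.69 and 13.24 in interneurons against 9.58 and 8.49 in pyramidal cells. Slc17a7 had means of 10.21 and 13.36 in pyramidal cells and of 8.02 and 8.14 in interneurons. The summed log2 signal of 13 pyramidal markers was 15.10 to 15.16 in Pyr P0 and 15.68 to 15.70 in Pyr P12, and the interneurons had 13.83 to 14.08 at P0 and 13.51 to 13.63 at P10. Neurod1 was not above background in either interneuron group, nor Slc17a6 and Neurod6 in IN P10. Within IN P0 this sum was highest, at 14.08, in replicate B, the array with the highest Grm2. Within IN P10 it was highest, at 13.63, in replicate C, the array with the lowest Grm2. The highest means of these markers in IN P10 were those of Camk2a (11.44) and Nrgn (11.30), which rose with age in interneurons.

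**Figure D5:**
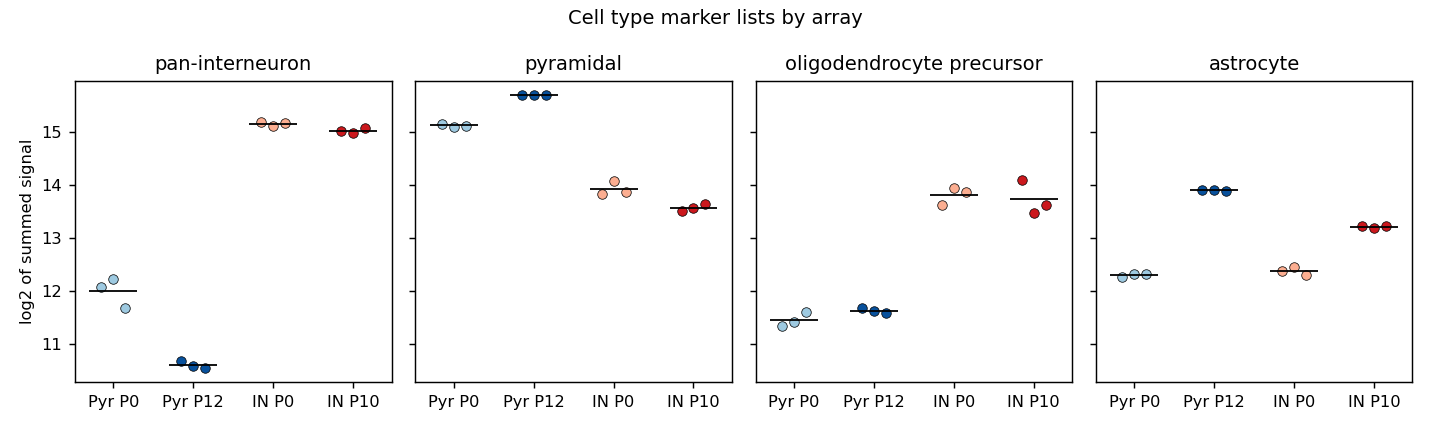
Log2 of the summed signal of each marker list on each array, with the group on the x axis; points are arrays in the order A to C and bars are group means. Oligodendrocyte precursor markers lie at 13.48 to 14.09 in IN P10 and at 11.58 to 11.67 in Pyr P12.

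The summed signals of glial and stress lists also differed between ages. The summed signal of 14 astrocyte markers went from 12.27 to 12.32 in Pyr P0 to 13.88 to 13.91 in Pyr P12, and from 12.29 to 12.45 in IN P0 to 13.19 to 13.23 in IN P10. Of these 14, 3 were called higher with age in pyramidal cells, Slc1a2 by 4.17, Atp1b2 by 1.51 and Aldh1l1 by 1.29, and the list's median was 0.30. Fgfr3, Slc1a3 and Sox9 were on the other side, with differences of -0.90, -0.46 and -0.23. In interneurons 3 were called higher, Slc4a4 by 2.48, Atp1b2 by 1.37 and Aldoc by 1.29, with a median of 0.17. Aqp4, Gja1 and Gjb6 were not above background in any group. Markers of myelinating oligodendrocytes reached 12.95 to 13.37 in IN P10, and were at 11.09 to 11.75 over the other groups. Immediate early and stress genes were at 12.81 to 13.21 in Pyr P0 and 13.55 to 13.76 in Pyr P12, and at 13.48 to 13.76 in IN P0 and 12.95 to 13.07 in IN P10. The part of these lists in the age differences of the receptors was not tested.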

How the data were processed

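RNA of FACS-sorted GFP+ cells from 12 samples, 3 in each of 4 groups, was hybridized to Mouse Gene 1.0 ST arrays. The values are log2 intensities as deposited by the authors, who normalized the arrays with RMA, which subtracts background, equalizes the distributions by quantiles and summarizes each probe set, so a shift common to all genes would be removed. There were 0 missing values among 28192 probe sets. The software version of RMA is not given in the sources used here, and the values name no genome build, so probe sets have no coordinates.

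Of all probe sets, 21640 had 1 gene symbol, 1321 several and 5231 none. The 22961 with a symbol were fitted in limma 3.58.1 (R 4.3.3) on all 12 arrays with group means and no block, and p-values were adjusted by Benjamini-Hochberg over all of them. The authors' methods name SAM, at the same thresholds of an FDR under 0.05 and a fold change over 2, which was run as an alternative. Further alternatives were a replicate block, limma fitted to only the 2 groups compared, robust limma-trend, a filter on dim probe sets, other sets of probe sets, centring, a second quantile normalization, other thresholds and leaving out each array. An exact permutation test of 3 against 3 arrays cannot go below 0.1 and was not used. P-values measure the spread between samples labelled as biological replicates.

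The receptors and the gene lists were chosen with earlier results of these data known. The genes named are the receptors, the 3 genes most like each, cell type markers and genes of the signaling lists. The latter come from the up to 4 called genes of each list with the largest difference in each comparison. Not all of those are named. Homer3 was named after its values were seen. Promoter sequences came from RefSeq, which had an entry for 4 of 6 receptors in the table used. Plots used matplotlib 3.10.9 (Python 3.11.15).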

Additional observations from a re-analysis of the deposited data

Results flagged for a closer look

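Groups of 3 arrays were not tested for outlying samples. For 4 receptors the difference with age in interneurons departed from that in pyramidal cells in limma's test of the interaction, at an adjusted p under 0.05. The departure, on the log2 scale and as interneurons minus pyramidal cells, was -2.03 for Grm2, -1.58 for Grm4, -0.83 for Grm7 and -0.34 for Grm3. Grm2 and Grm4 also passed 2-fold.

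Among the signaling genes, those with a departure past 2-fold fell on both sides. The interneuron difference was the lower for the scaffolds Dlgap2 (-2.70), Grasp (-2.02) and Shank2 (-1.02), for the potassium channel subunits Kcnj6 (-1.95) and Kcnj9 (-1.57), and for the phospholipase Plcb4 (-1.64). It was the higher for Rgs6 (1.54), Rgs9 (1.52) and Rgs8 (1.10), for the channels Trpc4 (1.47) and Trpc5 (1.40), and for the kinase Prkcd (1.44). As the later age was P10 in interneurons and P12 in pyramidal cells, a departure cannot be told apart from the difference in days.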

How the results depend on the processing

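Of 618 recomputed log2 differences of the receptors, 610 kept their direction and their side of the thresholds. Differences close to 0 changed sign when an array was left out. These were the age-by-population difference of Grm5 (range -0.0169 to 0.0736) and of Grm8 (-0.0413 to 0.174), and the difference of Grm3 between Pyr P12 and Pyr P0 (-0.0297 to 0.0257). Grm4 passed the 2-fold threshold in IN P10 against Pyr P12 without replicate C of IN P10.

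Counts of called receptors moved by over 1.5 times under other fold thresholds, and by less under the other alternatives. At 1.5-fold they were 2 in place of 0 with age in interneurons and 4 in place of 2 between populations at P0. With no fold threshold they were 6 with age in interneurons, 5 with age in pyramidal cells, 6 between IN P10 and Pyr P12, 6 between IN P0 and Pyr P0 and 4 for age by population. Of the counts of the signaling lists, 657 stayed within 1.5 times and 51 did not. The marker lists were not recounted under the alternatives.

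Whether the replicate letters pair the samples could not be settled from so few arrays. Over 18 pairs of arrays with the same letter, the correlation of deviations from group means ran from -0.18 to 0.19. Its median was 0.04, against -0.02 for pairs with different letters. Of 12 arrays, 5 were closest to an array of their own letter. With the replicate block, the receptors called were 0, 3, 3, 2 and 2 in the 5 comparisons, the same as without it, and all probe sets called in IN P10 against Pyr P12 were 1278 in place of 1277. Centring each array on its median moved a group mean by at most 0.02. The lists of genes most like the receptors kept 10 to 16 of 18 names when 1 array was left out, 10 without replicate A of IN P0. Trying the alternatives on these lists was chosen after seeing the data. The alternative of other probe sets of a receptor was not run, as each had 1. The number of arrays limits the precision, and the signal of Grm8 in IN P0 lies at the background level.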
